A study of Homo sapiens with 9 samples.

Results

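The genes described here are 36 genes that are switched on by low oxygen or that carry out glycolysis, the breakdown of glucose to pyruvate and lactate. They were found by gene symbol in a table of 62703 genes, and each of the 36 symbols matched 1 line. RNA was sequenced from 9 libraries of cells labelled HepG2, a line from a human hepatocellular carcinoma, with 3 libraries in each of 3 groups. All cells were grown in DMEM with fetal bovine serum under a labelled gas phase of 95% O2 and 5% CO2, and every culture was loaded for 24 h with the saturated fatty acid palmitic acid at 750 µM. For 1 group that was the whole treatment. The second then had 12 h of 20 µM curcumin, the yellow polyphenol from turmeric, and the third 12 h of the same curcumin dose with 5 µM CuCl2, a copper salt, added. The labels describe no culture at low oxygen, no cells without palmitic acid, no solvent control, no CuCl2 without curcumin, and no added 12 h of culture for palmitic acid alone, so treatment and added time cannot be told apart in any difference from that group. They do not state that the 3 libraries of a group came from separate cultures, so each p-value rests on a spread that may be technical. Values are TPM, a measure of transcript abundance, which are scaled for gene length and so can be compared between genes.

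Cells sense oxygen through the HIF-1 transcription factor. When oxygen is plentiful, prolyl hydroxylases of the EGLN family mark the HIF-1 alpha protein for destruction, and when it is scarce the protein builds up, pairs with ARNT and binds short DNA motifs near its target genes. Those targets include glucose carriers, nearly every glycolytic enzyme, lactate dehydrogenase, carbonic anhydrase 9, angiogenic factors and the mitophagy receptors BNIP3 and BNIP3L. Much of this control acts on the HIF-1 alpha protein, which RNA sequencing does not measure.

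The libraries differed within groups in ways that touched these genes. Replicate 3 of palmitic acid alone was the lowest of its group in 24 of the 35 members tested and in 61.4% of all genes tested, and replicate 1 the highest in 27 members and in 53.1% of all genes. With curcumin and CuCl2, replicate 1 was the lowest in 27 members and in 50.2% of all genes, and replicate 2 the highest in 27 members and in 50.1% of all genes. Mitochondrially encoded genes held 10.1% to 13% of the TPM of a library. Markers went against the label: all 20 hepatocyte markers had a mean under 1 TPM, 6 of them (ALB, APOA2, APOB, APOC3, TTR and FGB) were listed at 0 in every library, and their summed level was 0.89 to 1.34 TPM in the group given palmitic acid alone, 0.99 to 2.61 TPM after curcumin and 1.02 to 1.86 TPM after curcumin with CuCl2. Of 9 fibroblast, 9 leukocyte and 8 endothelial markers, 7, 6 and 8 had a mean under 1 TPM. Of 6 epithelial markers, KRT7, KRT8 and KRT18 were abundant and EPCAM, CDH1 and KRT19 were under 1 TPM. The epithelial sum was 3314 to 3812 TPM for palmitic acid alone, 2505 to 2865 TPM after curcumin and 2637 to 2715 TPM after curcumin with CuCl2. Its part in the differences below was not tested. In such bulk samples fewer cells of a type and less RNA per cell cannot be told apart.

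Glycolytic enzymes were among the abundant transcripts of these cells. GAPDH, the enzyme that oxidises glyceraldehyde 3-phosphate, led with 4881 to 6207 TPM over the 9 libraries. ENO1, the main enolase, ranged from 2071 to 2269.8 TPM, ALDOA, an aldolase, from 1375 to 1784 TPM, PKM, a pyruvate kinase, from 1438 to 1757 TPM and LDHA, which makes lactate from pyruvate, from 1222 to 1775 TPM. The middle of the pathway followed. TPI1, triose phosphate isomerase, stood at 786 to 904 TPM, PGK1, phosphoglycerate kinase, at 499 to 696 TPM, GPI, glucose phosphate isomerase, at 364 to 446 TPM and PGAM1, phosphoglycerate mutase, at 345 to 386 TPM. Of the 3 phosphofructokinase genes, PFKP was the highest at 160.0 to 189.6 TPM, with PFKM at 45.6 to 73.4 TPM and PFKL at 45.2 to 83.6 TPM. The lowest of the 16 enzyme genes were the second aldolase ALDOC at 20.5 to 25.8 TPM, the hexokinases HK1 at 14.6 to 20.3 TPM and HK2 at 7.19 to 13.3 TPM, and the second enolase ENO2 at 5.53 to 12.0 TPM. The hexokinases, which carry out the first step, stood below the most abundant enzyme of each later step in every library. PKLR, the pyruvate kinase gene of adult liver, had a mean of 0.0111 TPM over the 9 libraries, and SLC2A2, the glucose carrier gene of adult liver, was listed at 0 in each.

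Among the genes of transport and regulation, the lactate carrier SLC16A3 ranged from 199 to 256 TPM and the glucose carrier SLC2A1 from 61.8 to 98.4 TPM, while a second glucose carrier, SLC2A3, stood at 7.78 to 15.7 TPM. CA9, a carbonic anhydrase at the cell surface that is a classic HIF-1 target, stood at 7.95 to 18.6 TPM. CA12, a related carbonic anhydrase, was listed at 0 in 8 libraries and at 0.04 TPM in replicate 3 of palmitic acid alone, so it did not pass the minimum mean of 1 TPM and 35 members were tested. HIF1A, which encodes HIF-1 alpha, ranged from 75.6 to 151 TPM. The prolyl hydroxylase genes EGLN1 and EGLN3 stood at 28.9 to 42.3 and 6.09 to 11.7 TPM, the histone demethylase gene KDM3A at 13.3 to 17.3 TPM, and the collagen prolyl hydroxylase genes P4HA1 and P4HA2 at 17.3 to 25.5 and 14.8 to 21.3 TPM. PFKFB3 and PFKFB4, which make and break the activator of phosphofructokinase, stood at 5.78 to 8.63 and 3.35 to 9.71 TPM, and PDK1, which shuts off pyruvate dehydrogenase, at 8.55 to 14.2 TPM. The secreted factors VEGFA, which drives vessel growth, and ADM, a vasodilator peptide, ranged from 67.5 to 116 and 47.8 to 71.4 TPM. The mitophagy receptors BNIP3 and BNIP3L ranged from 59.2 to 87.6 and 20.0 to 41.0 TPM. The hypoxia-induced genes NDRG1 and ANKRD37 ranged from 73.2 to 169 and 34.6 to 62.9 TPM. Within groups the median member varied by an SD of 0.157 on the log2 scale, against 0.179 for all genes tested, and the most variable members were NDRG1 with 0.398, HIF1A with 0.371 and ENO2 with 0.303.

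**Figure D1:**
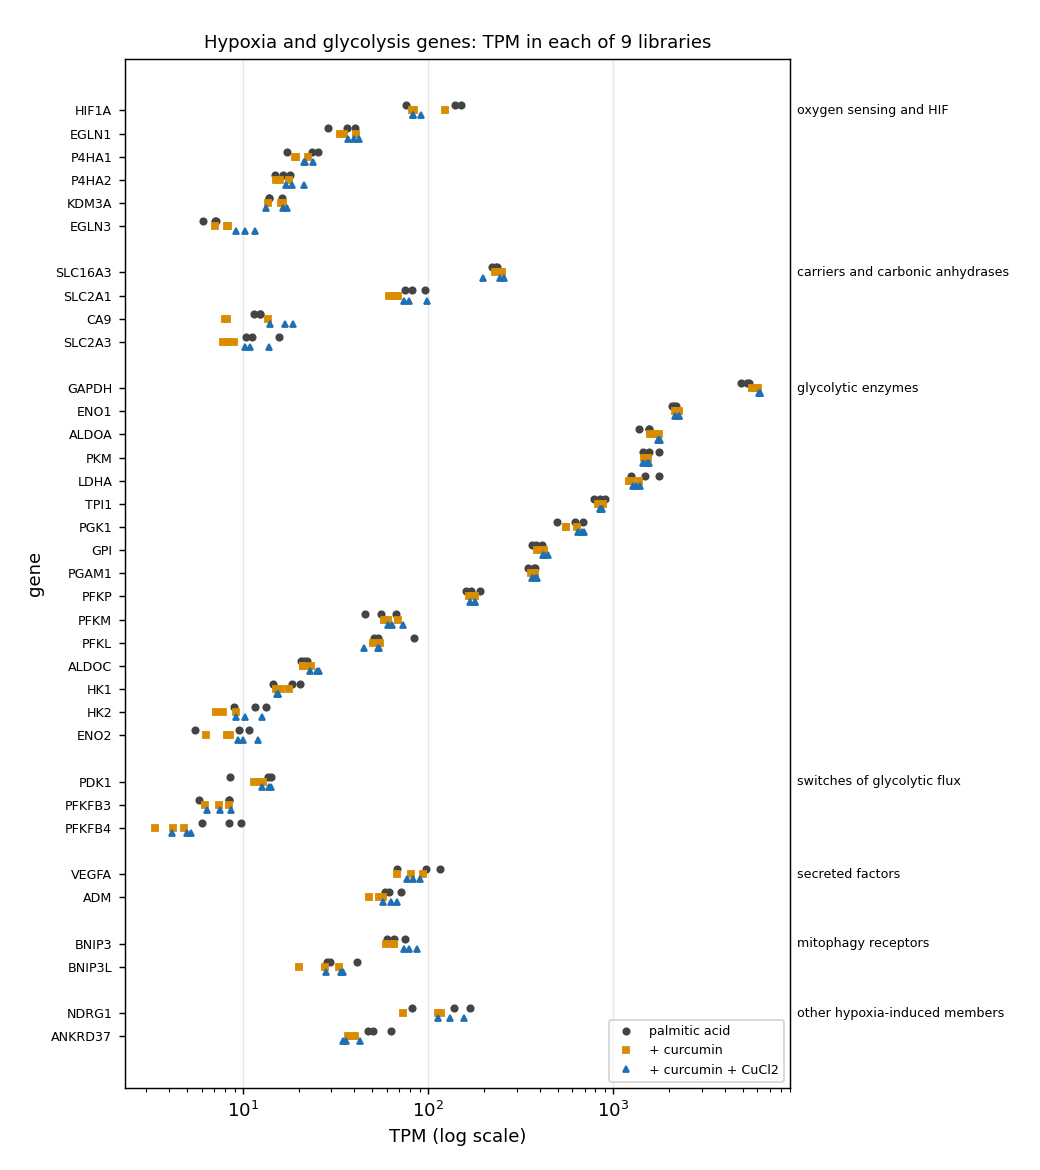
TPM of 35 members (log axis) in each of the 9 libraries, by role and then by level; each point is a library and the shape and colour give the group. GAPDH sits highest at 4881 to 6207 TPM and PFKFB4 lowest at 3.35 to 9.71 TPM, and most genes' groups overlap. CA12, listed at 0 in 8 libraries, is not drawn.

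RefSeq promoter windows (GRCh38.p14, 250 bases before to 50 after a transcription start) were found for 32 of the 36 members. Windows were searched on both strands for ACGTG and GCGTG, the core letters of the motif that HIF-1 binds. CACGTG holds ACGTG on both strands and counts as a match on each. The windows of the 4 members with the largest difference between groups among those with 1 window are printed here, 5′ to 3′ on the strand of the gene, to show where the letters lie; capitals mark ACGTG or GCGTG and their reverse complements. The window of PFKFB4 is chr3:48556754-48557053, minus strand, that of ANKRD37 is chr4:185396591-185396890, plus strand, that of CA9 is chr9:35673678-35673977, plus strand and that of EGLN3 is chr14:33951025-33951324, minus strand.
PFKFB4: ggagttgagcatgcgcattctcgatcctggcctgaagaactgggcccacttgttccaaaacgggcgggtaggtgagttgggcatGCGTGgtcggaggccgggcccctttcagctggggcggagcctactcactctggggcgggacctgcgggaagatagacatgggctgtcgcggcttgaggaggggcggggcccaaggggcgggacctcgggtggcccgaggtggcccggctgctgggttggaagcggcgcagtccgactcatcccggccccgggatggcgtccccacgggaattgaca
ANKRD37: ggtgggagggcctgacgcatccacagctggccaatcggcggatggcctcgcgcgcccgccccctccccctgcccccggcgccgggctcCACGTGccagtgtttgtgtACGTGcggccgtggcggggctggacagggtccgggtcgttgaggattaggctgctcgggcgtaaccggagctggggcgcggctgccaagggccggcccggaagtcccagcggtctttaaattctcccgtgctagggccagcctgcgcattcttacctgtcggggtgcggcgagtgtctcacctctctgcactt
CA9: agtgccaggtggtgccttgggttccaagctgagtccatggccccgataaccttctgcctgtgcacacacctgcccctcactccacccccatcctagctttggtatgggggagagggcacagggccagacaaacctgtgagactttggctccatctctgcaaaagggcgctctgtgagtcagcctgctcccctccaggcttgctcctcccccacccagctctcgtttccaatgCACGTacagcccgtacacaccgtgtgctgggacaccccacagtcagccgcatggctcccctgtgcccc
EGLN3: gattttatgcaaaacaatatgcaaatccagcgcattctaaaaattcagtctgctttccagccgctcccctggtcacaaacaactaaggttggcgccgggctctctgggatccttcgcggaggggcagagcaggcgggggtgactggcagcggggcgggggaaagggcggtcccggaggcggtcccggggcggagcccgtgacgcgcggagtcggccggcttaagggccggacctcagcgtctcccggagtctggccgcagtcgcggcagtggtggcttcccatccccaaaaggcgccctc
In PFKFB4 the letters GCGTG begin 166 bases before the start. In ANKRD37, CACGTG begins 162 bases before the start, and a further ACGTG 143 bases before it. In CA9 the match is on the other strand and begins 18 bases before the start, and in EGLN3 these letters are not in this window. Over the members, 40 of 60 windows held ACGTG or GCGTG on either strand (66.7%, exact binomial 95% interval 53.3% to 78.3%), against 61.5% of 14018 windows of the genes tested and 48.4% of all 35116 windows. ACGTG alone was in 38.3% of the members' windows, 26.3% of those of the genes tested and 21.4% of all. Genes have unequal numbers of windows, some of which overlap, so the interval, which treats windows as independent, is likely too narrow. Among genes with 1 window, 17 of 20 members (85%) held either motif, against 65.5% of the genes tested. The members include known HIF-1 targets, so these shares describe the list and test nothing.

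The first comparison, of curcumin against palmitic acid alone, asks whether curcumin moved the hypoxia and glycolysis genes of cells loaded with palmitic acid. PFKFB4, ANKRD37, the glucose carriers SLC2A1 and SLC2A3 and the peptide gene ADM stood lower in every curcumin library than in any library with palmitic acid alone, and the enzyme genes GAPDH and ALDOA stood higher, though their libraries overlapped with median-of-ratios scaling. The fitted log2 differences of these members ran from -0.81 for PFKFB4 to 0.17 for GAPDH and ALDOA. None of the 35 members passed the test (limma, Benjamini-Hochberg adjusted p under 0.05), where 1.96% of the 13443 genes tested did. The members' median difference was -0.07 on the log2(TPM + 1) scale, against -0.02 for all genes, with 13 estimates above 0 and 22 below. At an unadjusted p under 0.05, 2 members were higher and 6 lower, where 6.23% of all genes were higher and 7.79% lower. The 95% interval of 24 members lay wholly within a 1.5-fold difference either way, as did that of 9072 of the 13443 genes tested. The groups did not overlap for 2 members in the upward direction, GAPDH and ALDOA, and for 5 in the downward direction, PFKFB4, ANKRD37, SLC2A1, SLC2A3 and ADM, where 8.15% and 8.61% of all genes did so.

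The switch gene PFKFB4 had the largest difference of any member. Its levels were 9.71, 8.42 and 5.98 TPM with palmitic acid alone, 4.20, 4.78 and 3.35 TPM after curcumin and 4.12, 4.99 and 5.27 TPM after curcumin with CuCl2. Each library with curcumin, with or without CuCl2, lay below each library with palmitic acid alone. The difference with curcumin was -0.81 on the log2(TPM + 1) scale (SE 0.18; Benjamini-Hochberg adjusted p in limma = 0.0646), which missed the threshold. It passed in 3 of 19 alternatives, at limma adjusted p of 0.0226 with median-of-ratios scaling, 0.0158 when replicate 3 of palmitic acid alone was left out and 0.00737 with each library's mitochondrial share as a covariate. PFKFB4 lies on chromosome 3, 48517684 to 48562015, on the minus strand (GRCh38). Its relative PFKFB3 had 7.51 ± 1.498 TPM with palmitic acid alone, against 7.34 ± 1.09 TPM after curcumin (SD, n = 3 each), and those libraries overlapped.

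ANKRD37, a small ankyrin-repeat gene on chromosome 4, 185396021 to 185400628, on the plus strand, had 62.9, 47.5 and 50.4 TPM with palmitic acid alone, 40.1, 38.6 and 36.8 TPM after curcumin and 34.6, 42.9 and 35.96 TPM after curcumin with CuCl2. The 6 libraries with curcumin lay below the 3 without it. The difference with curcumin was -0.46 (SE 0.12, Benjamini-Hochberg adjusted p in limma = 0.0987). NDRG1, on chromosome 8, 133237171 to 133302022, on the minus strand, had 169, 138 and 82.3 TPM with palmitic acid alone, 117, 113 and 73.2 TPM after curcumin and 131, 156 and 113 TPM after curcumin with CuCl2. All groups overlapped, and replicate 3 was the lowest library of each group. Its difference with curcumin was -0.32 (SE 0.26, Benjamini-Hochberg adjusted p in limma = 0.676). This value rested on single libraries: leaving out replicate 3 of the group given palmitic acid alone made it -0.62, and leaving out replicate 1 of that group, or replicate 3 of curcumin, made it -0.11.

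The glucose carriers and hexokinase 2, which bring glucose into the pathway, stood lowest in the curcumin group. SLC2A3, on chromosome 12, 7919230 to 7936275, on the minus strand, had 15.7, 11.2 and 10.4 TPM with palmitic acid alone, 8.33, 8.91 and 7.78 TPM after curcumin and 10.2, 13.8 and 10.9 TPM after curcumin with CuCl2. The curcumin libraries lay below all 6 others. SLC2A1 had 96.2, 75.03 and 81.9 TPM with palmitic acid alone, 65.1, 68.7 and 61.8 TPM after curcumin and 79.3, 74.0 and 98.4 TPM after curcumin with CuCl2, again with the curcumin libraries below all others. HK2, on chromosome 2, 74833981 to 74893359, on the plus strand, had 13.3, 11.6 and 8.93 TPM with palmitic acid alone, 7.78, 9.16 and 7.19 TPM after curcumin and 9.15, 12.7 and 10.3 TPM after curcumin with CuCl2. Here the highest curcumin library lay above the lowest library of each of the other groups. Against palmitic acid alone the differences were -0.50 (SE 0.16) for SLC2A3, -0.36 (SE 0.12) for SLC2A1 and -0.43 (SE 0.17) for HK2, with limma Benjamini-Hochberg adjusted p of 0.181, 0.198 and 0.278. ADM was also lowest with curcumin, at 53.0 ± 4.72 against 63.8 ± 6.81 TPM (SD, n = 3 each), a difference of -0.26 (limma, Benjamini-Hochberg adjusted p = 0.295). VEGFA had 93.7 ± 24.4 TPM with palmitic acid alone, against 80.9 ± 13.3 TPM after curcumin, with overlapping libraries.

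GAPDH and ALDOA, enzymes of the middle of glycolysis, had upward differences. GAPDH had 5283, 4881 and 5436 TPM with palmitic acid alone, 5833, 5637 and 6025 TPM after curcumin and 6120.3, 6199 and 6207 TPM after curcumin with CuCl2, so that the 3 groups did not overlap at all. ALDOA had 1556, 1375 and 1560.1 TPM with palmitic acid alone, 1699, 1573 and 1763 TPM after curcumin and 1763, 1748 and 1784 TPM after curcumin with CuCl2. Its libraries with curcumin lay above those with palmitic acid alone. The differences with curcumin were 0.17 (SE 0.06) and 0.17 (SE 0.07), with limma Benjamini-Hochberg adjusted p of 0.207 and 0.300. With median-of-ratios scaling neither gene's libraries stayed apart in this comparison. The 16 enzyme genes as a whole had a median difference of 0.00, with 8 estimates above 0 and 8 below.

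**Figure D2:**
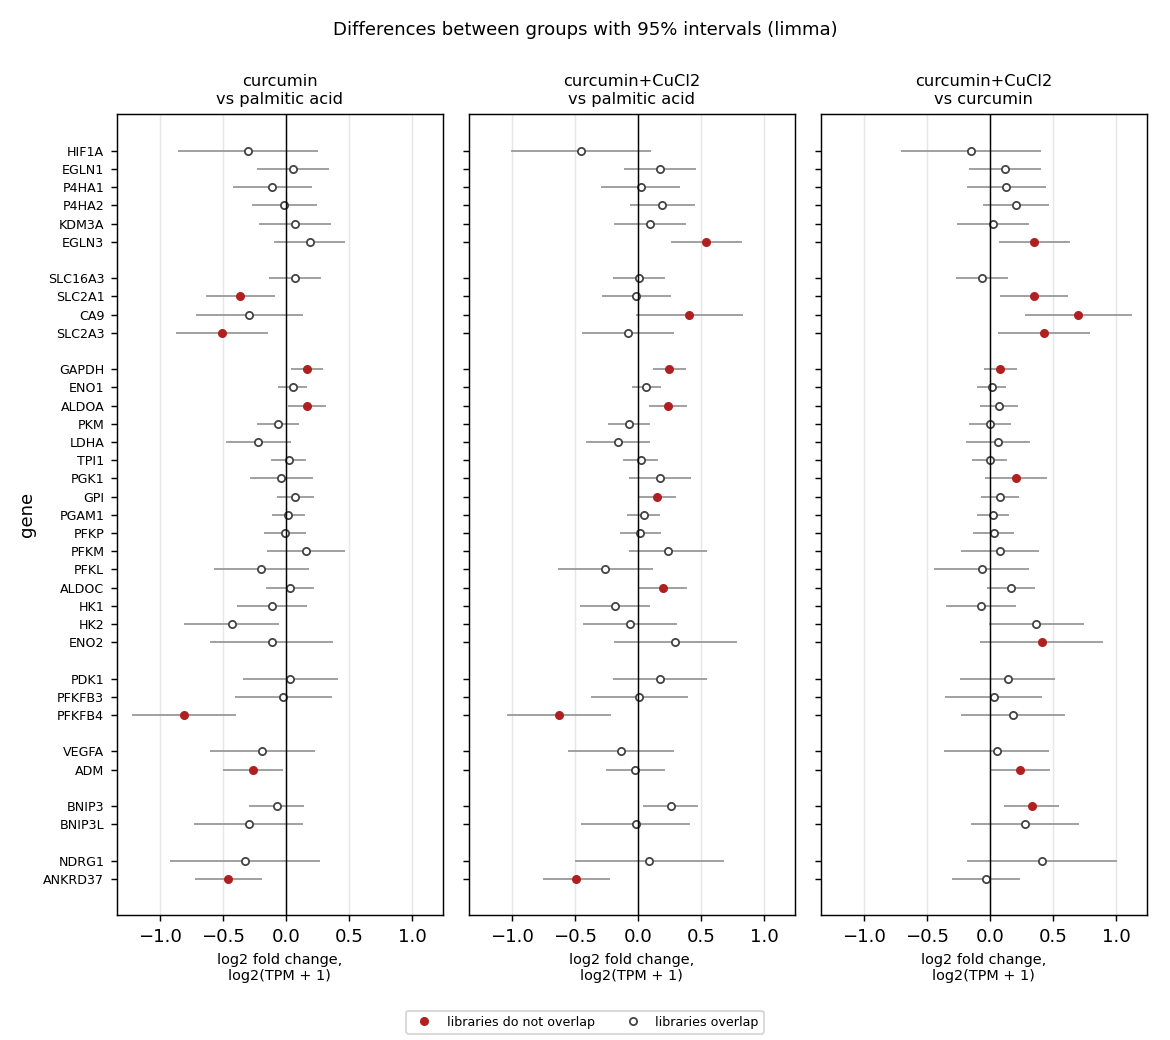
Differences between groups on the log2(TPM + 1) scale for 35 members in 3 comparisons, ordered as in the plot of levels; points are limma estimates, lines their 95% intervals, and filled red points mark members whose libraries do not overlap. PFKFB4 stands furthest left in both comparisons with palmitic acid alone, and in the comparison of the curcumin groups 28 of 35 estimates lie above 0.

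The second comparison set curcumin with CuCl2 against palmitic acid alone. PFKFB4 and ANKRD37 again stood below every library with palmitic acid alone, while EGLN3, CA9 and 4 glycolytic enzyme genes stood above. Of these enzyme genes, ALDOA had overlapping libraries with median-of-ratios scaling. Again 0 of 35 members passed the test (limma, Benjamini-Hochberg adjusted), where 1.44% of all genes did. At an unadjusted p under 0.05, 6 members were higher and 2 lower, where 5.57% and 7.97% of all genes were. The median member difference was 0.02, against -0.03 for all genes, with 22 estimates above 0 and 13 below. The groups did not overlap for 6 members upward, EGLN3, CA9, GAPDH, ALDOA, ALDOC and GPI, and for 2 downward, PFKFB4 and ANKRD37, where 8.67% and 10.3% of all genes did so. The intervals of 27 members lay within a 1.5-fold difference, as did those of 9052 of the 13443 genes tested.

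EGLN3, a prolyl hydroxylase whose gene is itself a HIF-1 target, had the largest upward difference. It lies on chromosome 14, 33924231 to 34462774, on the minus strand, and its levels were 7.17, 7.09 and 6.09 TPM with palmitic acid alone, 8.20, 7.07 and 8.34 TPM after curcumin and 9.13, 11.7 and 10.2 TPM after curcumin with CuCl2. The 3 libraries with CuCl2 were the highest of the 9. The difference from palmitic acid alone was 0.54 (SE 0.13, Benjamini-Hochberg adjusted p in limma = 0.0755), and that from curcumin 0.35 (SE 0.13, adjusted p = 1). The first passed the threshold in 2 of 19 alternatives, at limma adjusted p of 0.0383 with median-of-ratios scaling and 0.0163 with the mitochondrial share as a covariate. The other prolyl hydroxylase member, EGLN1, had 35.2 ± 5.71, 36.4 ± 3.68 and 39.6 ± 2.80 TPM in the 3 groups in the same order (SD, n = 3 each).

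Of the 16 enzyme genes 0 passed, and those whose libraries stood apart were GAPDH, ALDOA, ALDOC and GPI. GAPDH with CuCl2 was 6175 ± 48.0 TPM against 5199.8 ± 287 TPM with palmitic acid alone (SD, n = 3 each), a difference of 0.25 (SE 0.06, Benjamini-Hochberg adjusted p in limma = 0.0737). GAPDH passed the threshold in 3 of 19 alternatives, at limma adjusted p of 0.0441 without mitochondrial genes, 0.0271 when replicate 3 of palmitic acid alone was left out and 0.00902 with the mitochondrial share as a covariate. ALDOA differed by 0.24 (SE 0.07), ALDOC by 0.20 (SE 0.09) and GPI by 0.15 (SE 0.07), at limma Benjamini-Hochberg adjusted p of 0.127, 0.332 and 0.351. BNIP3 had 74.8, 65.6 and 60.3 TPM with palmitic acid alone, 65.2, 65.5 and 59.2 TPM after curcumin and 74.1, 87.6 and 78.5 TPM after curcumin with CuCl2. Its highest library with palmitic acid alone lay above the lowest with CuCl2, and the difference was 0.26 (SE 0.10, Benjamini-Hochberg adjusted p in limma = 0.266). On the downward side PFKFB4 differed by -0.62 (SE 0.18) and ANKRD37 by -0.49 (SE 0.12), at limma Benjamini-Hochberg adjusted p of 0.146 and 0.0854. PFKFB4 passed on leaving out replicate 3 of palmitic acid alone (limma adjusted p = 0.0325) and also with the mitochondrial share as a covariate (limma adjusted p = 0.0203). SLC2A3, HK2 and NDRG1 differed by -0.08 (SE 0.16), -0.06 (SE 0.17) and 0.09 (SE 0.26), with overlapping libraries. The comparison shares its palmitic acid libraries with the previous one, so the 2 are not independent.

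The direct comparison of curcumin with and without CuCl2 asks what the copper salt added. CA9, EGLN3, BNIP3, both glucose carriers, ADM and 3 enzyme genes stood higher in every library with CuCl2 than in any with curcumin alone, by 1.06-fold for GAPDH to 1.63-fold for CA9. The libraries of GAPDH overlapped here with median-of-ratios scaling. Of the 13443 genes tested 0 passed (limma, Benjamini-Hochberg adjusted), which is 0%, and so no member did. At an unadjusted p under 0.05, 6 members were higher with CuCl2 and 0 lower, where 0.766% of all genes were higher and 0.833% lower. Of the 35 estimates 28 lay above 0 (80%), against 45.6% of all genes, and the median member difference was 0.08 against -0.01. The groups did not overlap for 9 members upward and 0 downward, where 2.63% and 3.61% of all genes did so. Those 9 members, 25.7% of the 35, were SLC2A1, SLC2A3 and CA9 among the carriers and carbonic anhydrases, PGK1, GAPDH and ENO2 among the enzymes, and EGLN3, ADM and BNIP3. Members share regulators and libraries and were not tested as a list.

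CA9 had the largest difference. It lies on chromosome 9, 35673856 to 35681159, on the plus strand, and its levels were 12.3, 11.5 and 12.4 TPM with palmitic acid alone, 13.7, 8.23 and 7.95 TPM after curcumin and 13.9, 16.9 and 18.6 TPM after curcumin with CuCl2. The groups with and without CuCl2 were barely apart, because replicate 1 of curcumin lay just under replicate 1 of curcumin with CuCl2 and the other curcumin libraries far lower. The difference was 0.70 on the log2(TPM + 1) scale (SE 0.19, unadjusted p = 0.00438, limma with Benjamini-Hochberg adjusted p = 1). Against palmitic acid alone CA9 differed by -0.29 (SE 0.19) with curcumin and by 0.41 (SE 0.19) with curcumin and CuCl2, at adjusted p of 0.568 and 0.392 in the same limma fit with Benjamini-Hochberg adjustment. The difference with curcumin was -0.52 without replicate 1 of curcumin and -0.17 without replicate 3.

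The carriers SLC2A3 and SLC2A1 were 11.6 ± 1.90 and 83.9 ± 12.9 TPM with CuCl2, against 8.34 ± 0.565 and 65.2 ± 3.44 TPM with curcumin and 12.4 ± 2.82 and 84.4 ± 10.8 TPM with palmitic acid alone (SD, n = 3 each). Their differences between the curcumin groups were 0.43 (SE 0.16) and 0.35 (SE 0.12). HK2 differed by 0.37 (SE 0.17) with overlapping libraries. ADM, with 71.4, 58.3 and 61.6 TPM with palmitic acid alone, 57.1, 47.8 and 54.1 TPM after curcumin and 57.2, 68.2 and 62.9 TPM after curcumin with CuCl2, differed by 0.24 (SE 0.10), its groups with and without CuCl2 almost touching. BNIP3 differed by 0.33 (SE 0.10). NDRG1 differed by 0.42 (SE 0.26) and PFKFB4 by 0.19 (SE 0.18), both with overlapping libraries. Each of these had an adjusted p of 1 (limma, Benjamini-Hochberg). PFKFB4 and ANKRD37, the pair that lay below palmitic acid alone in both curcumin groups, had 4.11 ± 0.719 and 38.5 ± 1.65 TPM with curcumin and 4.79 ± 0.600 and 37.8 ± 4.46 TPM with CuCl2 added, with a difference of -0.03 (SE 0.12) for ANKRD37. ENO2, the minor enolase, had 10.8, 9.50 and 5.53 TPM with palmitic acid alone, 8.53, 8.17 and 6.28 TPM after curcumin and 9.40, 12.0 and 10.0 TPM after curcumin with CuCl2, and PGK1 had 686, 621 and 499 TPM with palmitic acid alone, 555, 637 and 558 TPM after curcumin and 648, 696 and 674 TPM after curcumin with CuCl2. For both, replicate 3 of palmitic acid alone was the lowest of the 9 libraries. The curcumin libraries enter both this comparison and the one with palmitic acid alone, so a low curcumin group appears in each.

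**Figure D3:**
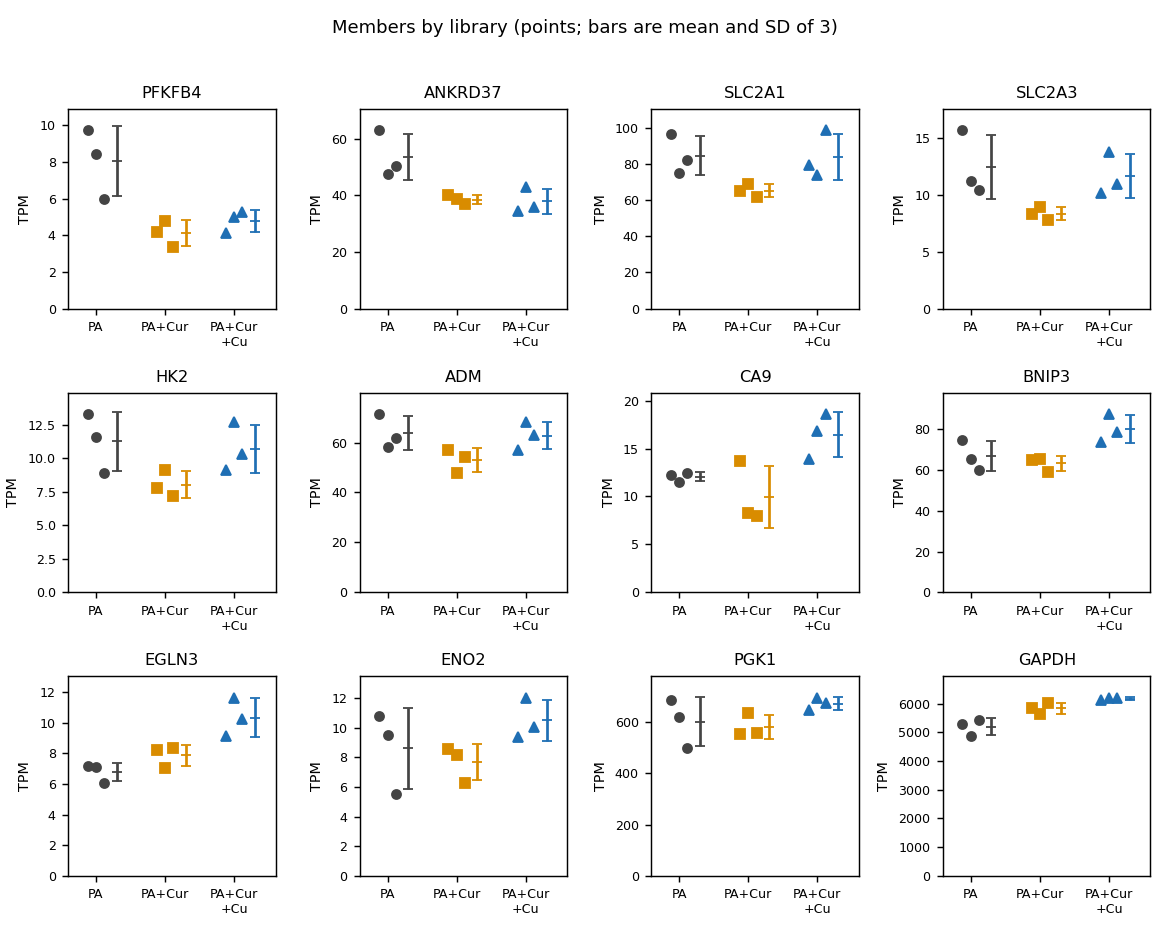
TPM of 12 members by library (points in replicate order; bars are the mean and SD of 3; each axis starts at 0), with PA for palmitic acid, Cur for curcumin and Cu for CuCl2. PFKFB4 and ANKRD37 are lower in both curcumin groups than with palmitic acid alone, SLC2A1 and SLC2A3 are lowest with curcumin, and EGLN3 and GAPDH are highest with CuCl2; no member passed the adjusted test.

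HIF1A itself, on chromosome 14, 61695513 to 61748259, on the plus strand, varied more between libraries than between groups. Its levels were 151, 140.4 and 75.6 TPM with palmitic acid alone, 83.5, 124 and 82.2 TPM after curcumin and 82.7, 91.1 and 82.5 TPM after curcumin with CuCl2. The libraries with the highest levels, replicates 1 and 2 of palmitic acid alone and replicate 2 of curcumin, stood between 124 and 151 TPM, and the other 6 between 75.6 and 91.1 TPM. The same 3 libraries had the highest mitochondrial shares, 13%, 12.5% and 12.4% of TPM, against 10.1% to 11.8% in the other 6. The differences from palmitic acid alone were -0.30 (SE 0.25) with curcumin and -0.45 (SE 0.25) with curcumin and CuCl2, and that between the curcumin groups -0.15 (SE 0.25), with limma Benjamini-Hochberg adjusted p of 0.680, 0.478 and 1. Without replicate 3 of palmitic acid alone, the differences from that group were -0.61 with curcumin and -0.76 with curcumin and CuCl2 (adjusted p = 0.0657 and 0.0358, limma with Benjamini-Hochberg adjustment). Without replicate 1 of that group they were -0.12 and -0.27 (limma adjusted p = 0.923 and 0.783). With the mitochondrial share as a covariate they were -0.11 and -0.29 (limma adjusted p = 0.416 and 0.0515).

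That covariate also moved the counts. With it, 4 members passed for curcumin against palmitic acid alone: PFKM and GAPDH higher, and PFKFB4 and ANKRD37 lower (limma, Benjamini-Hochberg adjusted). In the same fit 6.41% of all genes were higher and 4.78% lower. For curcumin with CuCl2 against palmitic acid alone 9 members passed, with EGLN1, EGLN3, PFKM, ALDOA, GAPDH, PGK1 and BNIP3 higher and PFKFB4 and ANKRD37 lower, where 5.66% of all genes were higher and 5.02% lower. The covariate takes 1 degree of freedom from 9 libraries, and its values differ between groups by less than within them, with means of 11.9% ± 1.55, 11.2% ± 1.04 and 11.3% ± 0.557 (SD, n = 3 each) in the order above.

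**Figure D4:**
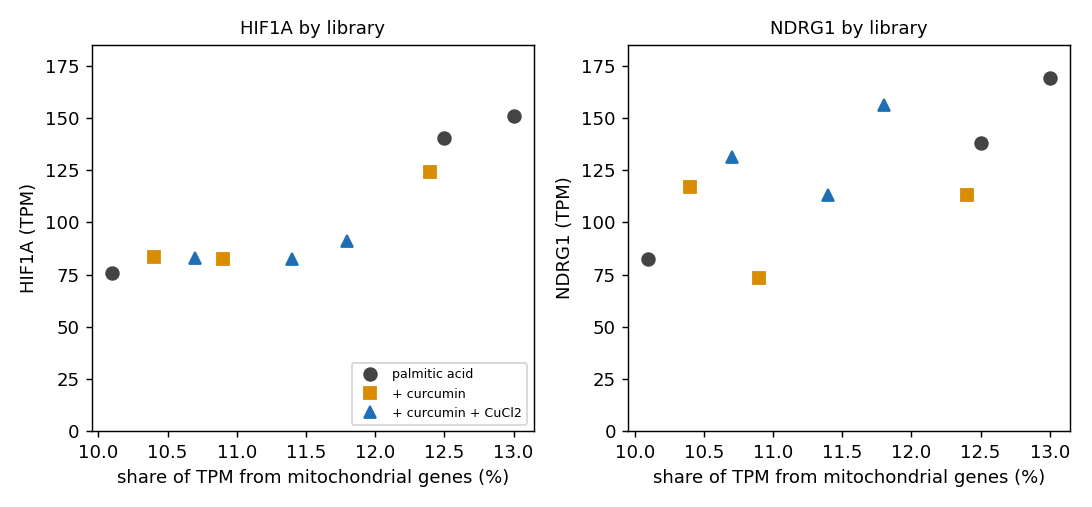
HIF1A and NDRG1 (TPM, y axis from 0) against each library's share of TPM from mitochondrially encoded genes (%), with 1 point per library and the shape and colour giving the group. The 3 libraries with the highest share hold the 3 highest HIF1A values, 124 to 151 TPM, whereas NDRG1 reaches 156 TPM in a library at 11.8%.

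Summed over the 16 enzyme genes, glycolysis took 1.52%, 1.39% and 1.42% of the TPM with palmitic acid alone, 1.503%, 1.495% and 1.518% after curcumin and 1.54%, 1.59% and 1.58% after curcumin with CuCl2. On this scale the group with CuCl2 lay above the others, and the other groups overlapped. With median-of-ratios scaling the libraries with CuCl2 overlapped those of both other groups. GAPDH makes up the largest part of this sum. Shares within sets of isoenzymes were computed after the values had been seen, for LDHA, HK2, PFKP, ENO2, ALDOC and the carrier SLC2A3. The PFKP and SLC2A3 shares overlapped in all 3 comparisons. That of ALDOC stood apart only with curcumin against palmitic acid alone, where it was lower. That of ENO2 stood apart only between the curcumin groups, where it was higher with CuCl2. LDHA, the lactate-forming subunit, held 58.8%, 53.6% and 51.0% of LDHA and LDHB together with palmitic acid alone, 47.4%, 48.0% and 47.2% after curcumin and 47.4%, 49.7% and 48.6% after curcumin with CuCl2. Both curcumin groups lay below palmitic acid alone, with differences of -6.89 and -5.84 percentage points, which were -4.72 and -3.68 without replicate 1 of palmitic acid alone. The exact permutation test gave p = 0.1 for each, the smallest that 3 against 3 allow two-sided, and 0.257 after Benjamini-Hochberg adjustment over 18 such tests. LDHA had 1775, 1489 and 1243 TPM with palmitic acid alone, 1222, 1368 and 1245 TPM after curcumin and 1274, 1397 and 1333 TPM after curcumin with CuCl2, and LDHB, the subunit that favours the reverse reaction, had 1245, 1290.3 and 1196 TPM with palmitic acid alone, 1354, 1480.5 and 1394 TPM after curcumin and 1413, 1413 and 1408 TPM after curcumin with CuCl2. LDHB was higher in all 6 libraries with curcumin than in the 3 without, though it did not pass the test, whereas the LDHA libraries overlapped. HK2 held 17.0%, 16.2% and 15.3% of the hexokinase genes HK1, HK2 and HKDC1 with palmitic acid alone, 14.8%, 15.1% and 13.5% after curcumin and 17.0%, 20.5% and 17.5% after curcumin with CuCl2. The exact permutation test gave p = 0.1 for each pair of groups, and 0.257 after the same adjustment. HKDC1, the most abundant of these genes, had 40.3 ± 5.17, 31.2 ± 2.46 and 32.0 ± 2.34 TPM in the 3 groups (SD, n = 3 each). Its libraries in both curcumin groups lay below those with palmitic acid alone, at limma Benjamini-Hochberg adjusted p of 0.163 and 0.220.

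**Figure D5:**
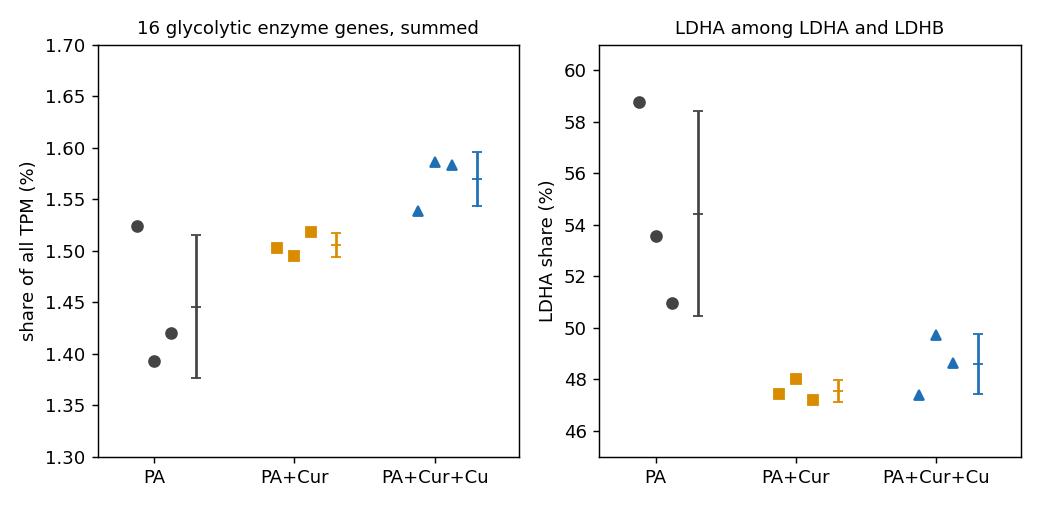
Left, the share of all TPM (%) held by the 16 glycolytic enzyme genes; right, the share (%) of LDHA in LDHA and LDHB; points are libraries in replicate order, bars the mean and SD of 3, and the axes do not start at 0. The enzyme share of TPM is highest with CuCl2 (1.54% to 1.59%), though the groups overlap with median-of-ratios scaling. The LDHA share is highest with palmitic acid alone (51.0% to 58.8%).

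Other genes of the same biology were counted from lists chosen by function. Of 9 measured isoenzymes and carriers outside the members, 13 genes of pyruvate entry into mitochondria, 10 of gluconeogenesis and glycogen, 12 HIF subunits and regulators and 31 other hypoxia-induced genes, 3 passed the test for curcumin against palmitic acid alone (limma, Benjamini-Hochberg adjusted). Of all genes tested 1.96% passed there. CITED2, which encodes a protein that competes with HIF-1 for its coactivators, fell from 69.7 ± 13.6 to 45.7 ± 0.892 TPM (SD, n = 3 each), a log2 difference of -0.58 (SE 0.12; limma with Benjamini-Hochberg adjusted p = 0.0476). STC2, a secreted stanniocalcin induced by hypoxia, fell from 92.8 ± 5.94 to 68.0 ± 8.16 TPM (limma, Benjamini-Hochberg adjusted p = 0.0498). Both lay close to the threshold and missed it in 12 and 13 of 19 alternatives. ANGPTL4, which PPAR receptors that sense fatty acids also induce, rose in both treatments, from 3.99 ± 0.868 to 14.6 ± 1.35 and 13.8 ± 1.55 TPM (limma, Benjamini-Hochberg adjusted p = 0.00104 and 0.00159). For curcumin with CuCl2 the only other gene of these lists to pass was PCK2, the mitochondrial gene of gluconeogenesis, which rose from 48.6 ± 1.37 to 63.9 ± 3.16 TPM (adjusted p = 0.0246, limma with Benjamini-Hochberg adjustment) and missed the threshold in 10 of 19 alternatives. In that comparison 1.44% of all genes tested passed.

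The HIF partners were measured without a call. EPAS1, the gene of HIF-2 alpha, had 88.7 ± 15.5, 83.4 ± 10.9 and 81.4 ± 5.58 TPM in the 3 groups, ARNT had 12.6 ± 3.53, 12.9 ± 3.14 and 12.3 ± 1.38 TPM, and VHL, which targets HIF for destruction, had 20.9 ± 3.80, 21.5 ± 4.78 and 18.6 ± 2.52 TPM (SD, n = 3 each). HIF1AN, another of the 12 measured HIF subunits and regulators, had 7.13 ± 1.14, 6.40 ± 0.499 and 5.16 ± 0.533 TPM. Its 3 libraries with CuCl2 were the lowest of the 9, but only just. The highest of them had 5.75 TPM, against 5.84 TPM in a library of palmitic acid alone and 5.87 TPM in a curcumin library. With median-of-ratios scaling the HIF1AN libraries of the curcumin groups overlapped. The difference from palmitic acid alone was -0.39 (SE 0.14, limma with Benjamini-Hochberg adjusted p = 0.234). In that comparison 0 of the 12 stood apart upward and 2 downward, where 8.67% and 10.3% of all genes did so. With CuCl2 against curcumin 2 stood apart upward and 1 downward. Between the curcumin groups 0 genes of these lists passed (limma, Benjamini-Hochberg adjusted), and 4 of the 31 other hypoxia-induced genes reached an unadjusted p under 0.05, all higher with CuCl2, where 0.766% of all genes were higher. Of those 31 genes 25 had an estimate above 0 (80.6%, against 45.6% of all genes), with a median of 0.10 against -0.01. The groups did not overlap for 6 upward (19.4%), FAM162A, AK4, PLOD1, TMEM45A, EFNA1 and MIR210HG, and for 0 downward, where 2.63% and 3.61% of all genes did so. With median-of-ratios scaling the PLOD1 libraries overlapped and those of the other named genes did not. MIR210HG was low, at 0.46 to 2.57 TPM over the 9 libraries. Against palmitic acid alone the same 31 genes had 11 estimates above 0 and 20 below with curcumin, with a median of -0.10 against -0.02. There 2 reached an unadjusted p under 0.05 upward and 9 downward, where 6.23% and 7.79% of all genes did. The curcumin libraries enter that comparison and the one between the curcumin groups. With curcumin and CuCl2 against palmitic acid alone, 15 estimates lay above 0 and 16 below, with a median of -0.01 against -0.03. AK4, a mitochondrial adenylate kinase, had 23.6, 20.7 and 19.8 TPM with palmitic acid alone, 19.2, 21.4 and 18.5 TPM after curcumin and 22.6, 24.8 and 23.8 TPM after curcumin with CuCl2. FAM162A, a hypoxia-induced mitochondrial protein, had 70.5, 68.8 and 78.3 TPM with palmitic acid alone, 82.3, 75.1 and 82.1 TPM after curcumin and 91.6, 89.5 and 87.0 TPM after curcumin with CuCl2. In both genes every library with CuCl2 lay above every library with curcumin, and neither gene passed the test.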

How the data were processed

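The authors deposited 1 table of TPM values for 62703 genes in 9 libraries, and its columns were assigned to samples by name. RNA was extracted with TRIzol and polyadenylated RNA was made into stranded libraries, per the labels' protocols. The submitters' processing notes list RSEM 1.3.3, HISAT2 2.1.0 and GRCh38.p13 without their roles, and the annotation release is not given in the sources used here. Columns summed to between 999999 and 1000001. TPM keeps no depth, so the reads behind a value are unknown and no count model was used. RSEM shares reads among similar genes. Listed pseudogenes of 16 members summed to at most 2.03% of their gene (BNIP3), and at most 0.355% for a glycolytic enzyme.

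Values were taken as log2(TPM + 1), a scale that understates differences of low genes. Genes averaging 1 TPM or more, 13443 in number, were fitted in limma 3.58.1 (R 4.3.3) with a mean per group over all 9 libraries and a variance trend. The 3 differences were tested two-sided, with Benjamini-Hochberg adjustment over all 13443 genes and a threshold of 0.05. The test was checked on simulated data with noise drawn independently for each gene and library. That check could not show the effect of shifts that many genes of a library share. GENCODE release 29 (GRCh38) gave the gene coordinates. Promoters are from RefSeq on GRCh38.p14. Figures were drawn with matplotlib 3.10.9.

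The members, the other gene lists and the tests were chosen with earlier results of these data known. All members are named, and full values are given for the 8 members with the largest difference among those reaching a group mean of 5 TPM. Full values of SLC2A1, GAPDH, ALDOA, ADM, BNIP3, ENO2 and PGK1, whose libraries did not overlap in a comparison, and of LDHA were added after seeing them. ALDOC and GPI, whose libraries also did not overlap in a comparison, are given by range. As alternatives, the pseudocount was set to 0.1 or 5, the filter was dropped or raised to 5 TPM, columns were rescaled by median of ratios or without mitochondrial genes, each pair of groups was fitted alone, and each library was left out in turn. The fit was also run with the replicate number as a block, with no variance trend, and with the mitochondrial share as a covariate. Counts of members whose groups do not overlap, and the isoenzyme shares, were varied in ways chosen after seeing the data.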

Additional observations from a re-analysis of the deposited data

How the results depend on the processing

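Members passing the test (limma, Benjamini-Hochberg adjusted) numbered 0 in 16 of 19 alternatives for curcumin against palmitic acid alone, in 15 of 19 for curcumin with CuCl2 against palmitic acid alone and in 19 of 19 between the curcumin groups. For curcumin the exceptions were 1 member with median-of-ratios scaling, 4 with the mitochondrial share as a covariate and 0 to 1 on leaving out a library. For curcumin with CuCl2 they were 1 with median-of-ratios scaling, 1 without mitochondrial genes, 9 with the covariate and 0 to 3 on leaving out a library. Of 36 member differences printed with a test, 31 kept their sign in every alternative. The other 5 were small. With curcumin and CuCl2 against palmitic acid alone, HK2 was 0.0289 with the covariate and ranged from -0.21 to 0.0561 on leaving out a library, SLC2A3 from -0.19 to 0.0896 and NDRG1 from -0.20 to 0.31. Between the curcumin groups HIF1A ranged from -0.25 to 0.0423 and ANKRD37 from -0.12 to 0.0288. The cause was not tested.

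Over all genes, 264 passed for curcumin against palmitic acid alone (38.6% of them higher), 104 with no filter, 35 with only the 2 groups, 130 with no variance trend, 1505 with the covariate (57.3% higher) and 55 to 633 on leaving out a library, the top count without replicate 3 of palmitic acid alone, the lowest without replicate 3 of curcumin, and every other omission giving 130 or fewer. For curcumin with CuCl2, 194 passed (37.6% higher), 114 with no filter, 65 with only the 2 groups, 1436 with the covariate (53.0% higher) and 49 to 555 on leaving out a library, the top count again without replicate 3 of palmitic acid alone, the lowest without replicate 1 of curcumin with CuCl2, and every other omission giving 176 or fewer. Between the curcumin groups 0 passed, 1 with a pseudocount of 5, 3 with no filter, 3 with only the 2 groups and 0 to 4 on leaving out a library. Median-of-ratios scaling moved the median of all genes by less than 0.1 in each comparison.

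Counts of members whose libraries did not overlap moved with scaling and with leaving out a library, and so did the share of all genes. For curcumin against palmitic acid alone, the 2 upward members (8.15% of all genes) became 0 with median-of-ratios scaling (9.17%) and 2 to 5 on leaving out a library (11.0% to 12.8%). The 5 downward members (8.61%) became 5 to 16, the 16 without replicate 3 of palmitic acid alone, where 23.6% of all genes did so. For curcumin with CuCl2, the 6 upward (8.67%) became 5 without mitochondrial genes (7.95%), 9 with median-of-ratios scaling (10.7%) and 6 to 11 on leaving out a library (10.8% to 13.9%). ALDOA was not among the 9 with median-of-ratios scaling. The 2 downward (10.3%) became 4 with that scaling (10.6%) and 2 to 6, the 6 without replicate 3 of palmitic acid alone, where 35.2% of all genes did so. Between the curcumin groups, the 9 upward (2.63%) became 14 with that scaling (3.21%), 8 without mitochondrial genes (2.61%) and 10 to 15 on leaving out a library, the 15 without replicate 2 of curcumin, where 18.4% of all genes did so. GAPDH was not among the 14 with that scaling. The 0 downward became 0 to 1.

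The median member difference ranged on leaving out a library from -0.16 to 0.0103 for curcumin, from -0.0291 to 0.0896 for curcumin with CuCl2 (17 to 28 estimates above 0) and from 0.0797 to 0.15 between the curcumin groups. In both comparisons with palmitic acid alone the lowest median came on omitting replicate 3 of that group and the highest on omitting its replicate 1. A pseudocount of 5 brought PFKFB4 to -0.51 with curcumin and to -0.40 with curcumin and CuCl2. With ACGTG alone, 38.3% of member promoter windows held the motif.

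Replicate numbers are shared between groups, but 3 libraries a group are too few to settle whether the numbers pair the libraries. Deviations from group means correlated, across genes, at -0.269 to 0.246 for libraries of the same number and at -0.382 to 0.262 for others. With the replicate block 177, 147 and 0 genes passed in the 3 comparisons in the order above, and 0 members in each. Depth is unknown, so counting error could not be set apart from other spread.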
